A study of Homo sapiens with 12 samples.

Results

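The 39 genes described here act in the G2 phase of the cell cycle and in mitosis. They were taken by name: each row of the raw count table whose Ensembl identifier belongs to 1 of 39 listed symbols, among them the cyclins A2, B1 and B2, CDK1, the Aurora and Polo kinases, and proteins of the spindle checkpoint, kinetochore, spindle and cytokinesis. All 39 were found among the 58735 genes of the table, and all 39 were among the 15060 genes that passed the filter on low counts. The cells were OCI-AML2, a human acute myeloid leukaemia line that the study treats as KMT2A-rearranged. They carried, by lentivirus, either a guide against luciferase (sgLuc, the control) or a guide against KDM6A (sgUTX_2 or sgUTX_4). KDM6A encodes UTX, a demethylase of histone H3 lysine 27. Cells of each kind received DMSO or 1 µM SGC0946, an inhibitor of the histone H3 lysine 79 methyltransferase DOT1L, for 6 days. The 6 groups were therefore sgLuc with DMSO, sgLuc with SGC0946, sgUTX_2 with DMSO, sgUTX_2 with SGC0946, sgUTX_4 with DMSO and sgUTX_4 with SGC0946, with 2 RNA-seq libraries in each. The libraries of both KDM6A guides were compared together, as 4 against 2 sgLuc libraries within a treatment. The labels do not say whether the guided cells were a mixed population or a clone, nor whether the libraries of 1 group derive from independent cultures. The p-values therefore describe no more than the spread among these libraries, and that spread may be technical.

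Cells enter mitosis when CDK1, bound to a cyclin of the A or B type, is freed from inhibitory phosphate by CDC25 phosphatases. The Polo and Aurora kinases then build the spindle. The checkpoint proteins BUB1, BUBR1 (the product of BUB1B) and MPS1 (TTK) hold anaphase until the kinetochores are attached. CDC20 and UBE2C then drive the anaphase-promoting complex to destroy securin (PTTG1) and cyclin B. The mRNAs of these genes rise in G2 and fall after mitosis. Their promoters are known for the CHR element (cell cycle genes homology region) and for CCAAT boxes, through which the DREAM complex represses them early in the cycle and the B-MYB and FOXM1 complexes activate them late. Genes of DNA replication depend more on E2F sites and peak earlier, around entry into S phase.

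The promoter table covered 33 of the 39 genes; AURKA, TTK, TPX2, UBE2C, BIRC5 and FOXM1 had no entry. Letters of the CHR element (TTTGAA or TTTAAA, both strands) lay between 250 bases before and 50 bases after the RefSeq start in 28 of these 33 promoters (84.8%), against 6625 of all 27305 promoters (24.3%). A CCAAT box (CCAAT, both strands) was found in 26 of 33 (78.8%), against 35.7% of all promoters. An E2F site (TTTCCCGC, TTTCGCGC, TTTGCCGC or TTTGGCGC, both strands) was found in 3 of 33 (9.09%), against 3.33% of all. Among 17 promoters of a list of 20 S phase and replication genes, the CHR letters were in 3 (17.6%), the CCAAT letters in 13 (76.5%) and the E2F letters in 13 (76.5%). The mitotic promoters thus differed from the replication promoters in the letters of the CHR and E2F elements, and both held CCAAT letters at like shares. A match is a description of letters, not a bound site, and motif matches can overlap each other.

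Promoter stretches follow for 7 members that moved in different directions with the KDM6A guides, and 1 for the replication gene MCM6, chosen as a contrast after its values were seen (173 CPM in sgLuc DMSO and 408 in sgUTX DMSO on average). Each run is 5′ to 3′ on the gene's strand and begins 120 bases before the RefSeq start (build GRCh38.p14). It ends at that start or, in CDC20, earlier, before the first base that GENCODE 29 places in an exon. The PTTG1 and CENPA runs also end before the RefSeq start, with CHR letters that lie inside the first exon of GENCODE 29; the last 10 bases of the PTTG1 run and the last 8 of the CENPA run are exonic. Capitals mark CHR and CCAAT letters on either strand, and in MCM6 the E2F and CCAAT letters. PTTG1, CENPA and CDC25C were lower with the KDM6A guides in DMSO, and MKI67, CENPF, KIF11 and MCM6 were higher. CDC20 was not called there but differed between the guides.
PTTG1: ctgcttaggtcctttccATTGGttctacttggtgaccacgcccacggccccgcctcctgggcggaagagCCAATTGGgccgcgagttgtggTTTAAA
CENPA: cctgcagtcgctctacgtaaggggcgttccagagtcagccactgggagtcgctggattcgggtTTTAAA
CDC25C: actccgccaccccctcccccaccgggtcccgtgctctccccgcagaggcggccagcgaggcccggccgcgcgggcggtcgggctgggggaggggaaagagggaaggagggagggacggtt
CDC20: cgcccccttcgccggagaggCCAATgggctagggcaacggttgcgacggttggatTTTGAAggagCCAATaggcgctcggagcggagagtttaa
MKI67: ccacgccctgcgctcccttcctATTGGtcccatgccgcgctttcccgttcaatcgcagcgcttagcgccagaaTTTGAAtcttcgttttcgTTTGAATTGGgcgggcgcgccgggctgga
CENPF: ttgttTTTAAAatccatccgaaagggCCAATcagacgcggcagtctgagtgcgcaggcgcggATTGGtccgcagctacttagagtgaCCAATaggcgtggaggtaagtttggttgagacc
KIF11: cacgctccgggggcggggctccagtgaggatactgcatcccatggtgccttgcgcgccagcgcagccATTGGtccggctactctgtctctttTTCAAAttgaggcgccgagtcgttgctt
MCM6: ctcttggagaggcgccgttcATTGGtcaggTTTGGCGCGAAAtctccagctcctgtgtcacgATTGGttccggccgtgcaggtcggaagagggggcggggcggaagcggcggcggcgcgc

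The PTTG1 run (chr5:160421735-160421831, plus strand) holds the palindrome TTTAAA, and the CENPA run (chr2:26785936-26786004, plus strand) ends in it too. The MKI67 run (chr10:128126424-128126543, minus strand) holds TTTGAA at 2 places, the CENPF run (chr1:214603075-214603194, plus strand) holds TTTAAA near its far end, and the KIF11 run (chr10:92593010-92593129, plus strand) holds TTCAAA, which is TTTGAA on the other strand. The CDC20 run (chr1:43358861-43358954, plus strand) holds TTTGAA, and the CDC25C run (chr5:138338356-138338475, minus strand) has none of the letters searched. The MCM6 run (chr2:135876444-135876563, minus strand) holds overlapping E2F letters and no CHR letters. Members that were lower and members that were higher with the KDM6A guides in DMSO held the CHR letters at similar shares: 11 of 13 lower (84.6%), 7 of 8 higher (87.5%) and 10 of 12 not called (83.3%). Within the last 100 bases before the start the shares were 10 of 13, 5 of 8 and 6 of 12, against 8.69% of all promoters.

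**Figure D1:**
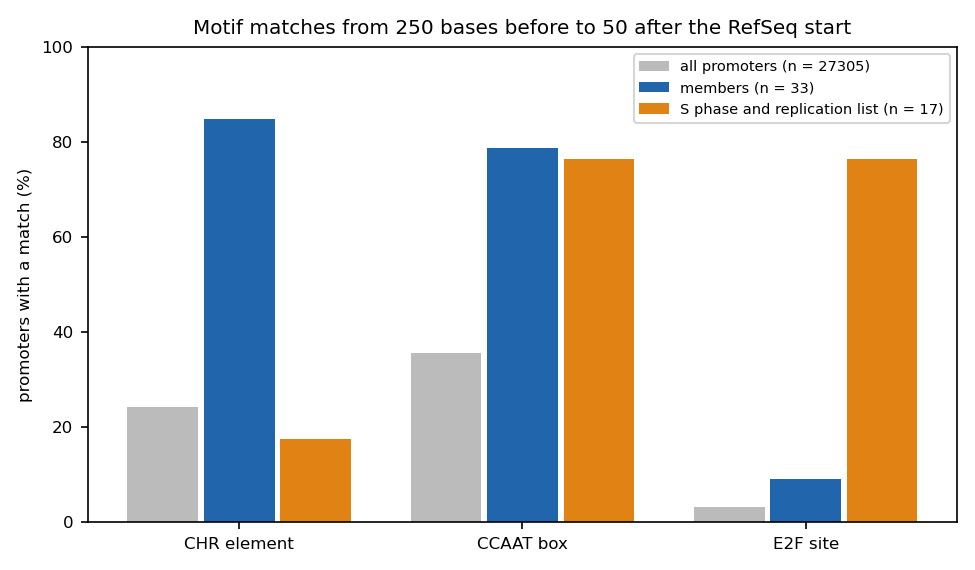
Share of promoters (%, vertical axis) with at least 1 match to the CHR element, the CCAAT box or the E2F site, for all 27305 promoters (grey), 33 of the 39 mitosis and G2 genes (blue) and 17 of 20 S phase and replication genes (orange). The CHR bars stand at 24.3%, 84.8% and 17.6%, and the E2F bars at 3.33%, 9.09% and 76.5%.

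The libraries held 15480493 to 23262141 counts, of which the 39 genes took 52114 to 100699. Levels below are CPM, counts relative to the library's total after TMM scaling, a correction for differences in RNA makeup between libraries. The sgLuc DMSO libraries stood apart in that makeup: ribosomal protein genes (88 genes) took 17.8% and 19% of their counts, against 11.1% to 13.2% in the other 10 libraries, and their TMM factors were 0.854 and 0.887, against 1.03 to 1.07 in the sgUTX DMSO libraries. Scaled by library size alone, the median gene of all those tested differed by 0.26 (log2) between sgUTX and sgLuc in DMSO, against -0.01 with TMM, and 66.7% of the calls were higher, against 47.1%. Changes below are relative to the TMM scale, and the called members whose direction turns without it are named where their values stand. Some members that were not called also changed sign. KDM6A itself was at 27.9 to 32 CPM in sgLuc DMSO, 14.7 to 15.6 in sgUTX_2 DMSO and 46.2 to 49.4 in sgUTX_4 DMSO, so the transcript lay below the control with sgUTX_2 and above it with sgUTX_4, and the libraries are called by their guide labels throughout. Of 7 myeloid markers all were detected (SPI1 at 351 to 470 CPM). The summed CPM of the 7 myeloid markers was 2060 to 2220 in sgLuc DMSO, 1650 to 2010 in sgUTX DMSO, 12000 to 12200 in sgLuc SGC0946 and 4880 to 6840 in sgUTX SGC0946. LYZ ran from 244 to 535 CPM in DMSO and from 2890 to 9450 in SGC0946. In DMSO PTPRC (652 and 614 CPM with sgLuc, 390 to 405 with sgUTX) and CSF3R (395 and 369, 203 to 220) were lower with the KDM6A guides. CEBPA was higher there (263 CPM in both sgLuc libraries, 305 to 331 with sgUTX), and MPO overlapped (72.9 and 53.5, 71.4 to 149). Of the 7 myeloid markers, edgeR called 1 higher and 3 lower in DMSO. The erythroid markers HBA1 and HBB were at 0 counts in all 12 libraries, and the erythroid list summed to at most 0.388 CPM. Of 4 megakaryocyte markers PF4 and PPBP were at 0 counts throughout, while ITGA2B and GP9 were called lower with the KDM6A guides in both treatments, the list summing to 16.9 to 20 CPM in sgLuc DMSO, 6.06 to 8.94 in sgUTX DMSO, 13.2 to 13.3 in sgLuc SGC0946 and 4.48 to 7.62 in sgUTX SGC0946. Of 5 lymphoid markers MS4A1 was at 0 throughout and the 3 tested were lower in both treatments (sums of 5.6 to 7.41, 1.05 to 1.46, 14 to 15.8 and 2.61 to 3.25 CPM in the same order). In the list of adherent cells, PECAM1, which leukocytes also express, made up nearly all of the sum (262 to 263, 40 to 48, 509 to 514 and 112 to 114 CPM) and was lower in both treatments. The part of these markers in the results below was not tested.

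The summed level of the 39 genes varied little: 3945 and 4040 CPM in sgLuc DMSO, 3626 to 3961 in sgUTX DMSO, 4021 and 4064 in sgLuc SGC0946, and 4029 to 4259 in sgUTX SGC0946. Per kilobase of exon in sgLuc DMSO, TOP2A, the topoisomerase that untangles sister chromosomes, had the highest level of the 39 (77.4 CPM per kb), followed by CCNA2 (63.4), CDC20 (58.8) and CCNB1 (56.4). PRC1, which bundles microtubules in the central spindle, had the lowest (0.151 CPM per kb). PRC1 shares 57.6% of its exonic bases with AC068831.7 on the same strand, so its count depends on how shared reads were treated, which the sources used here do not give. CCNA2, CDC25C, CDCA3, CENPA and BUB1B share 6.96% to 10.2% with other genes. In bulk RNA, more cells in mitosis and more mRNA per mitotic cell cannot be told apart.

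**Figure D2:**
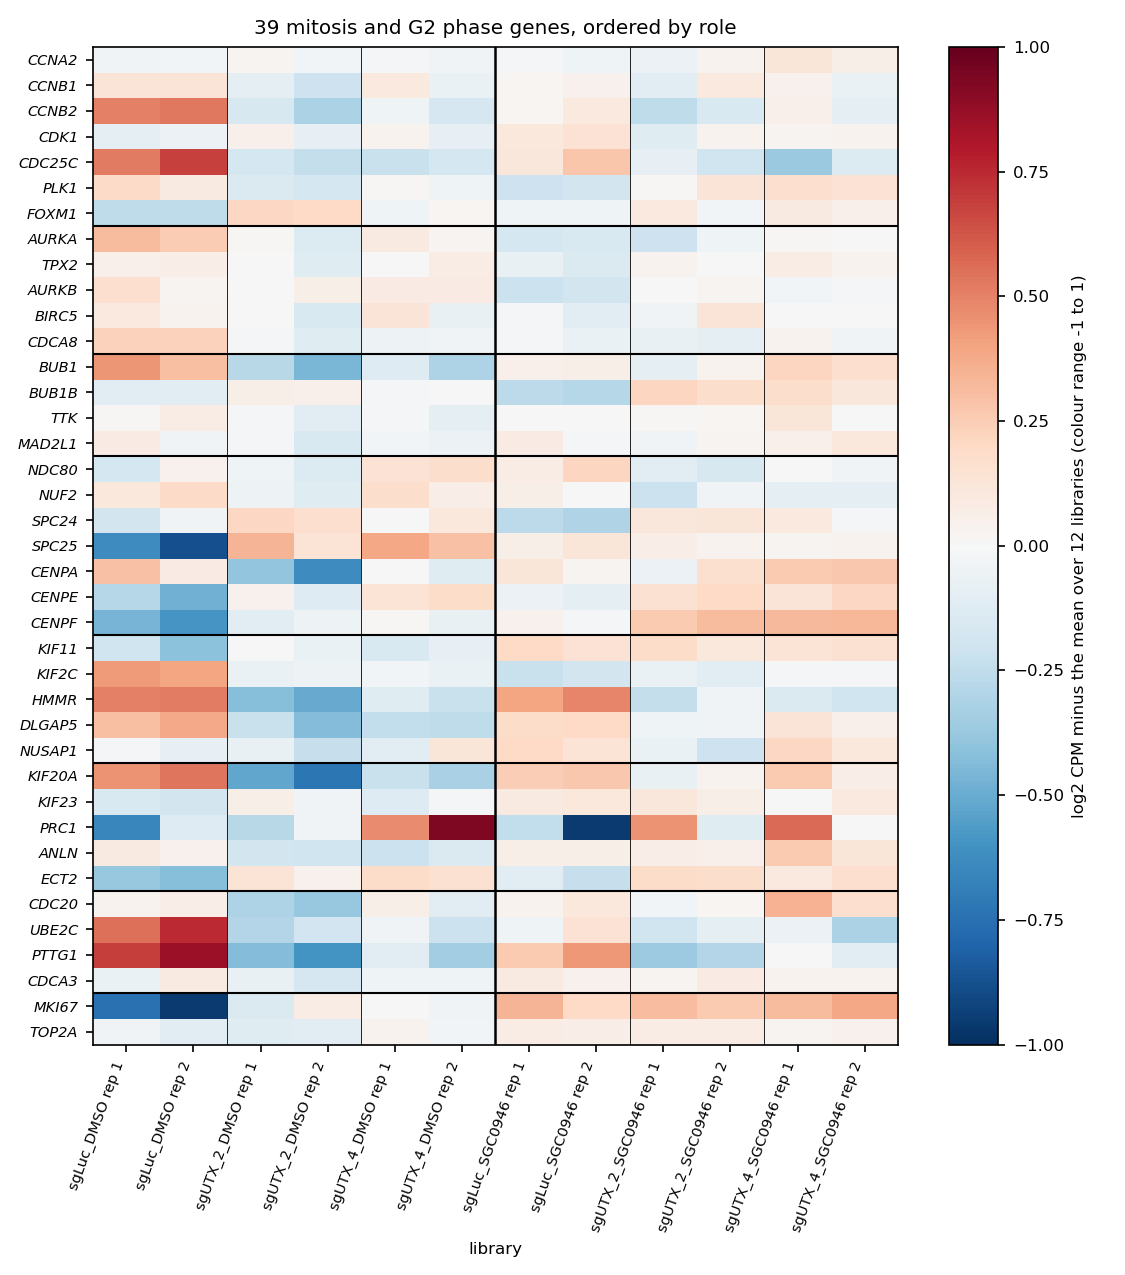
Each row is 1 of the 39 genes, grouped by role between horizontal lines, and each column 1 of the 12 libraries; colour gives log2 CPM minus the gene's mean over the 12 libraries. The 2 sgLuc DMSO columns hold most of the strong colours, in both directions: CCNB2, CDC25C, UBE2C and PTTG1 above their means, SPC25, CENPF and MKI67 below.

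In DMSO, the mitotic genes went both ways with the KDM6A guides, as all genes tested did. Securin (PTTG1), the mitotic kinesin KIF20A, the ubiquitin-conjugating enzyme UBE2C, the spindle protein HMMR, the phosphatase CDC25C and cyclin B2 were lower than with sgLuc, while SPC25, a subunit of the outer kinetochore, MKI67, the proliferation antigen Ki-67, ECT2 and the large kinetochore protein CENPF were higher. Of the 39 genes, 9 were higher and 15 lower, where 28.7% of all genes tested were higher and 32.3% lower (61% called in either direction). The number of members called was thus near that of any genes. The median log2 fold change was -0.09 over the 39 and -0.01 over all genes. By role, the entry kinases and cyclins had 1 higher and 4 lower of 7, the Aurora kinases and chromosomal passenger complex 0 and 2 of 5, the checkpoint 1 and 1 of 4, the spindle motors and microtubule proteins 1 and 3 of 5, cytokinesis 1 and 2 of 5, and anaphase and exit 0 and 2 of 4. The 2 counts of 0 are edgeR's; at an unadjusted p of 0.05, and by DESeq2, they were 0 as well. The kinetochore and centromere went the other way, with 4 higher and 1 lower of 7.

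Among the lower genes, PTTG1, the inhibitor of separase (chr5:160421822-160428744, plus strand, GENCODE 29 on GRCh38), was at 77.9 and 87.2 CPM in the sgLuc DMSO libraries, 35.8 and 32 in sgUTX_2 and 45 and 37.9 in sgUTX_4. No sgUTX library reached the lower of the sgLuc values, and the log2 fold change was -1.13 ± 0.12 (SE; adjusted p = 4.74e-07, edgeR). KIF20A, which moves the passenger complex to the central spindle, was at 68 and 72 CPM with sgLuc, 34.7 and 30.1 with sgUTX_2 and 42.6 and 39.7 with sgUTX_4 (-0.93 ± 0.11, adjusted p = 8.85e-07). UBE2C, the E2 enzyme of the anaphase-promoting complex, was at 54.3 and 62.2 CPM with sgLuc and between 30.2 and 36.1 in the 4 sgUTX libraries (-0.83 ± 0.09, adjusted p = 3.17e-08). HMMR, a microtubule-binding protein of the spindle poles, was at 93.3 and 94.1 CPM with sgLuc and between 46.4 and 60.6 with sgUTX (-0.82 ± 0.09, adjusted p = 3.02e-08). For these 4 genes the groups did not overlap, which also held for all 24 called members and for 26 of the 39. The share over all genes was not counted, and 61% of all genes were called in this comparison. These counts therefore do not set the members apart from other genes.

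The genes of mitotic entry were unequal. CCNB2 was at 114 and 116 CPM with sgLuc and 64.6 to 77.9 with sgUTX (-0.69 ± 0.08, adjusted p = 6.00e-08), and CDC25C, which activates CDK1, at 21.9 and 24.5 and 12.9 to 13.5 (-0.81 ± 0.11, adjusted p = 6.23e-07). CCNB1, the other B cyclin, was at 144 in both sgLuc libraries, 123 and 114 with sgUTX_2 and 141 and 126 with sgUTX_4 (-0.20 ± 0.07, adjusted p = 0.0264), so the 2 B cyclins differed in the size of the change. PLK1, the Polo kinase, was at 185 and 172 CPM with sgLuc, 146 and 143 with sgUTX_2 and 163 and 157 with sgUTX_4 (-0.23 ± 0.06, adjusted p = 0.00344). Scaled by library size alone, CCNB1 and PLK1 turned to 0.08 and 0.04. CDK1 was at 112 and 115 CPM with sgLuc and 113 to 124 with sgUTX, which overlapped, and CCNA2 at 177 and 178 against 177 to 184; neither was called (log2 fold changes 0.06 and 0.02). FOXM1, the transcription factor of late cell cycle genes, went against the other called entry genes: 57.6 and 57.9 CPM with sgLuc, 79.7 and 79.1 with sgUTX_2 and 66.8 and 69.7 with sgUTX_4 (0.36 ± 0.08, adjusted p = 0.000304). FOXM1 shares 15.9% of its exonic bases with ITFG2 on the other strand, and PLK1 shares 12.5% with neighbours.

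Of the Aurora kinases, AURKA, which acts at the spindle poles, was at 115 and 110 CPM with sgLuc, 92.8 and 83.9 with sgUTX_2 and 98.1 and 93.7 with sgUTX_4 (-0.29 ± 0.07, adjusted p = 0.00109). AURKB, the kinase of the chromosomal passenger complex, was at 98.8 and 89.9 CPM with sgLuc and 88.2 to 93.4 with sgUTX, which overlapped (-0.04 ± 0.06). Its partner CDCA8 (borealin) was lower (-0.29 ± 0.06, adjusted p = 0.000245), and BIRC5 (survivin) and the AURKA activator TPX2 were not called (-0.09 and -0.07). By library size alone, AURKA and CDCA8 were no longer called (-0.02 and -0.01). In the checkpoint, BUB1 was at 138 and 125 CPM with sgLuc, 83.7 and 74 with sgUTX_2 and 93.2 and 82.1 with sgUTX_4 (-0.66 ± 0.08, adjusted p = 9.77e-07). Its relative BUB1B was at 94.7 in both sgLuc libraries and 101 to 107 with sgUTX (0.14 ± 0.06, adjusted p = 0.0479). BUB1 and BUB1B were thus called in opposite directions, but the BUB1B call was lost in most fits that left out 1 library. TTK and MAD2L1 were not called (-0.10 and -0.09).

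**Figure D3:**
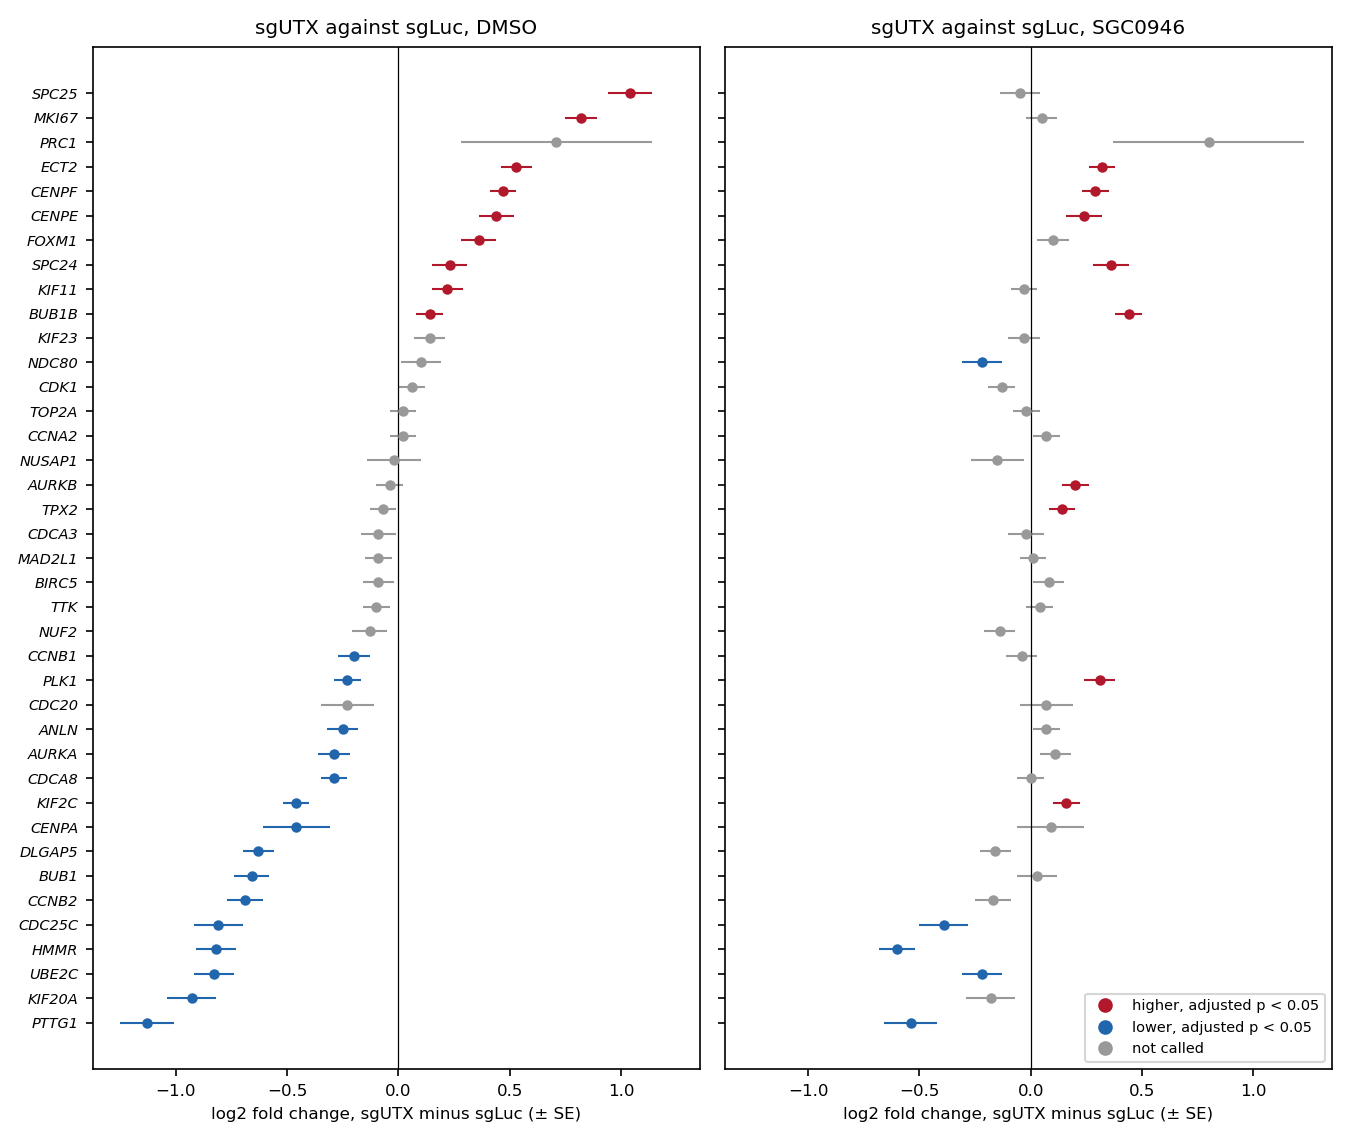
Log2 fold change (horizontal axis, ± SE) of each of the 39 genes, 4 sgUTX against 2 sgLuc libraries, in DMSO (left) and in SGC0946 (right), in the order of the DMSO values; red and blue points passed an adjusted p of 0.05 and grey points did not. In DMSO the values run from -1.13 (PTTG1) to 1.04 (SPC25), and in SGC0946 most lie nearer 0.

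At the kinetochore, SPC25 (chr2:168834132-168913371, minus strand) was at 15.4 and 12.9 CPM with sgLuc, 30.1 and 26.1 with sgUTX_2 and 31.1 and 29.2 with sgUTX_4 (1.04 ± 0.10, adjusted p = 8.07e-09). SPC24, its partner in the NDC80 complex, rose less, from 29.9 and 33.1 to between 33.8 and 39.2 CPM (0.23 ± 0.08, adjusted p = 0.0216), and NDC80 and NUF2, which form the other arm of the complex, were not called (0.10 and -0.13). CENPF was at 133 and 122 CPM with sgLuc and 170 to 185 with sgUTX (0.47 ± 0.06, adjusted p = 4.61e-07), and CENPE, a kinetochore kinesin, at 43.5 and 38.1 and 48.6 to 60.4 (0.44 ± 0.08, adjusted p = 9.51e-05). CENPA, the histone H3 variant of centromeres, was the exception: 44.6 and 38.4 CPM with sgLuc, 27.6 and 23.5 with sgUTX_2 and 36.5 and 33.4 with sgUTX_4 (-0.46 ± 0.15, adjusted p = 0.0155). By library size alone, CENPA was no longer called (-0.19, adjusted p = 0.275, edgeR).

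Among spindle and cytokinesis genes, KIF11, the motor that separates the spindle poles, was at 115 and 99.6 CPM with sgLuc and 119 to 132 with sgUTX (0.22 ± 0.07, adjusted p = 0.00529). KIF2C, a kinesin that takes microtubules apart, was lower (163 and 159 against 116 to 119 CPM; -0.46 ± 0.06, adjusted p = 1.88e-07), as was DLGAP5, which stabilises spindle fibres (87.9 and 93 against 52.7 to 61.2; -0.63 ± 0.07, adjusted p = 5.64e-08). ECT2, the exchange factor that starts the cleavage furrow, was at 56.9 and 55 CPM with sgLuc, 81.1 and 76 with sgUTX_2 and 83.9 and 82.1 with sgUTX_4 (0.53 ± 0.07, adjusted p = 3.69e-07). Its partner at the furrow ANLN was at 88.7 and 85.6 CPM with sgLuc and 71.6 to 75.2 with sgUTX (-0.25 ± 0.07, adjusted p = 0.00181) and at 0.02 by library size alone. The last role holds MKI67 and TOP2A, both often read as marks of proliferation, and MKI67 alone was called. MKI67 (chr10:128096659-128126385, minus strand) was at 161 and 139 CPM with sgLuc, 244 and 284 with sgUTX_2 and 270 and 264 with sgUTX_4 (0.82 ± 0.07, adjusted p = 1.61e-09). TOP2A was at 511 and 485 CPM with sgLuc, 481 and 484 with sgUTX_2 and 537 and 513 with sgUTX_4 (0.02 ± 0.06), and its groups overlapped.

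**Figure D4:**
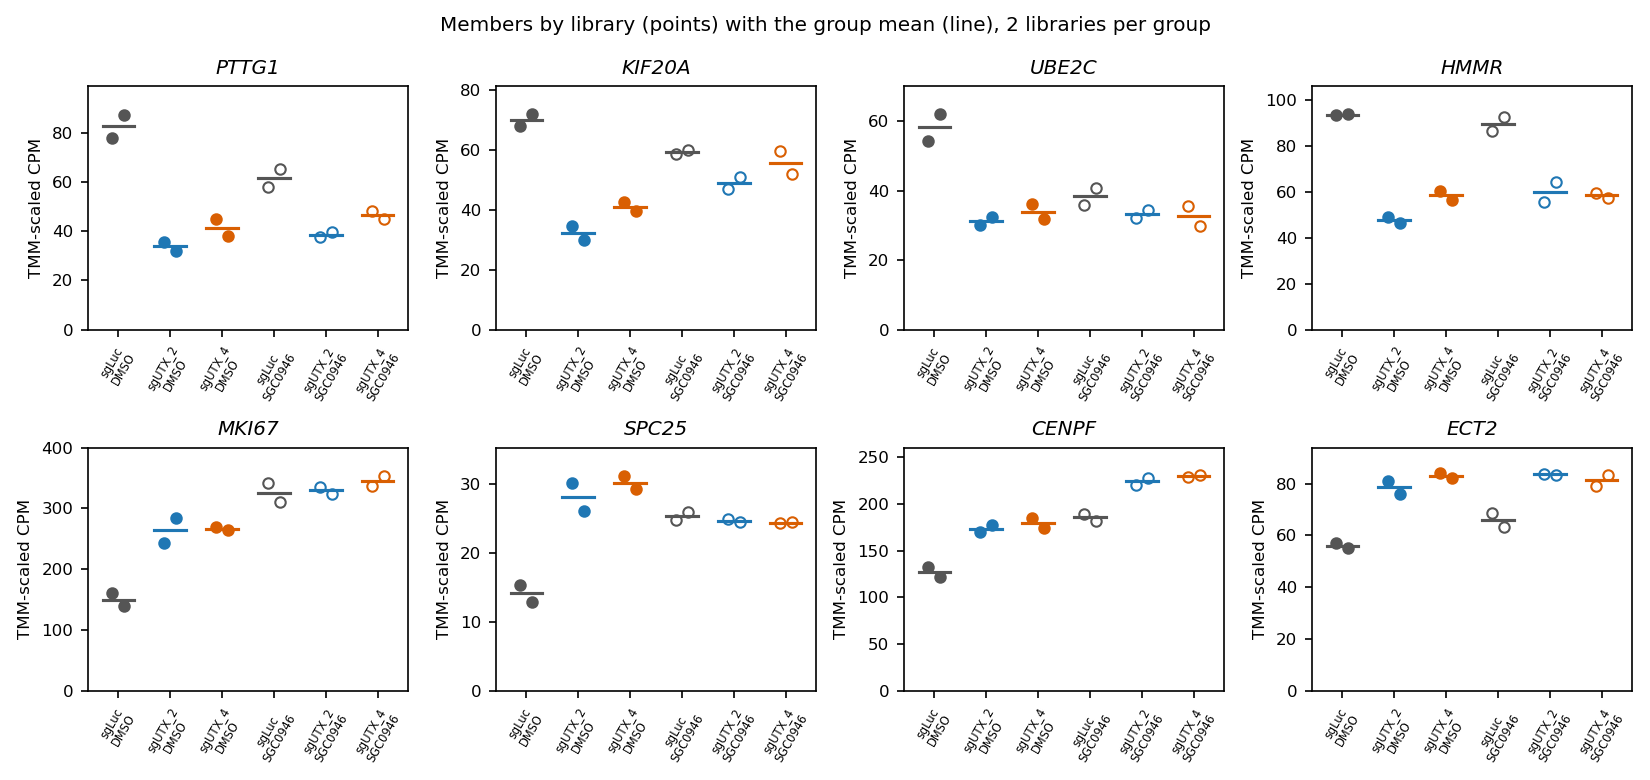
TMM-scaled CPM (vertical axis, from 0) in each library for 4 genes that were lower (PTTG1, KIF20A, UBE2C, HMMR) and 4 that were higher (MKI67, SPC25, CENPF, ECT2) with the KDM6A guides in DMSO; points are libraries, lines the mean of 2, filled points DMSO and open points SGC0946. The sgLuc DMSO points lie apart from the 4 sgUTX DMSO points in all 8 panels.

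Of the 24 genes called in DMSO, 18 stayed called whichever library was left out. The call of SPC24 was lost without the sgLuc DMSO library 1 (adjusted p = 0.243), as were those of CENPA (0.17) and PLK1 (0.0886), and that of KIF11 without library 2 (0.213). CCNB1 was lost without either sgLuc DMSO library (0.121 and 0.105), either sgUTX_2 DMSO library (0.0561 and 0.0866) or the second sgUTX_4 DMSO library (0.0509), and BUB1B in most of these fits (up to 0.157). A ratio of 2 genes within a library needs no scaling; the following pairs were chosen after their values were seen. MKI67 counts per PTTG1 count were 2.07 and 1.6 in sgLuc DMSO, 6.01 to 8.88 in sgUTX DMSO, 5.89 and 4.75 in sgLuc SGC0946 and 6.99 to 8.91 in sgUTX SGC0946. CENPF counts per UBE2C count were 2.44 and 1.96, 5.12 to 5.63, 5.25 and 4.45, and 6.45 to 7.73 in the same order. CCNA2 counts per CCNB2 count were 1.55 and 1.54, 2.31 to 2.76, 2.19 and 2.05, and 2.36 to 2.58. In all 3 ratios the sgLuc DMSO libraries lay below the other 10.

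With each KDM6A guide the members went both ways, as all genes did, although the KDM6A transcript lay on opposite sides of the control. Against sgLuc in DMSO, sgUTX_2 gave 10 higher and 17 lower members, where 28.2% of all genes were higher and 32.2% lower (60.4% in all), and sgUTX_4 gave 9 and 14, where 28.5% and 31.2% were (59.7%). Called with both guides were 7 higher and 14 lower members, and no member was called in opposite directions. Both guides share the sgLuc libraries. Here and below, the share of all genes called with both guides was not counted. Compared directly, sgUTX_4 was higher than sgUTX_2 in DMSO for 4 members, where 1.72% of all genes were higher and 1.77% lower (3.49% in all). These were CENPA (35 against 25.5 CPM on average; 0.46 ± 0.10, adjusted p = 0.00524), KIF20A (41.1 against 32.4; 0.35 ± 0.09, adjusted p = 0.019), CDC20 (113 against 90.9; 0.32 ± 0.07, adjusted p = 0.00595) and HMMR (58.5 against 47.8; 0.29 ± 0.08, adjusted p = 0.0252). By edgeR, 0 members were lower at an adjusted p of 0.05. At an unadjusted p of 0.05, 1 was lower and 13 were higher. How many of all genes passed the unadjusted threshold was not counted, here or for SGC0946 below. DESeq2 called 2 higher and 0 lower members. Without sgUTX_2 DMSO library 2, or without sgUTX_4 DMSO library 1, none of the 4 was called. CDC20, the activator of the anaphase-promoting complex, was at 118 and 121 CPM with sgLuc DMSO, 93 and 88.8 with sgUTX_2 and 120 and 107 with sgUTX_4. In SGC0946, CDC20 was the 1 member called between the guides, at 138 against 115 CPM (0.26 ± 0.07, adjusted p = 0.0248), where 1.61% of all genes were higher and 1.4% lower (3.01% in all). No member was lower by edgeR (7 higher and 0 lower at an unadjusted p of 0.05) or by DESeq2 (1 and 0). CDC20 was not called without sgUTX_2 SGC0946 library 1, sgUTX_2 SGC0946 library 2 or sgUTX_4 SGC0946 library 1.

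In cells with the control guide, the mitotic genes also went both ways with SGC0946, as all genes did. MKI67, SPC25 and CENPF were higher, and KIF2C, UBE2C, AURKA and CCNB2 were lower. In all, 9 members were higher and 11 lower, where 24.7% of all genes were higher and 24.2% lower (48.9% in either direction). The number called was near that of any genes, in both directions; the median was -0.10 over the 39 genes and 0.00 over all. This comparison shares the sgLuc DMSO libraries with the DMSO comparison above. MKI67 was at 161 and 139 CPM in DMSO and 341 and 310 in SGC0946 (1.11 ± 0.08, adjusted p = 1.61e-10), the only member of the 39 past a 2-fold change here. SPC25 went from 15.4 and 12.9 to 24.8 and 25.9 CPM (0.84 ± 0.12, adjusted p = 2.22e-06), CENPF from 133 and 122 to 189 and 182 (0.54 ± 0.07, adjusted p = 6.95e-07) and KIF11 from 115 and 99.6 to 152 and 146 (0.47 ± 0.08, adjusted p = 1.81e-05). These 4 were the largest rises among the members.

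On the other side, KIF2C went from 163 and 159 CPM in DMSO to 104 and 107 in SGC0946 (-0.61 ± 0.07, adjusted p = 5.71e-08). UBE2C went from 54.3 and 62.2 to 36 and 40.9 CPM (-0.60 ± 0.11, adjusted p = 5.69e-05), AURKA from 115 and 110 to 81.5 and 82.8 (-0.46 ± 0.08, adjusted p = 8.51e-05) and CCNB2 from 114 and 116 to 81.5 and 85.9 (-0.46 ± 0.09, adjusted p = 0.000208). The Aurora and passenger genes were the most uniform role: 4 of 5 were lower and 0 higher by edgeR, with 0 higher also at an unadjusted p of 0.05 and by DESeq2. AURKB was at 98.8 and 89.9 CPM in DMSO and 76 and 77.4 in SGC0946 (-0.30 ± 0.07, adjusted p = 0.00115), and CDCA8 and TPX2 were lower as well (-0.27 and -0.17). PLK1 fell from 185 and 172 to 140 and 142 CPM (-0.34 ± 0.08, adjusted p = 0.000676), and PTTG1 (-0.42), CDC25C (-0.40) and BUB1 (-0.32) were also lower.

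The other rises of the control cells were smaller. CDK1 was at 112 and 115 CPM in DMSO and 129 and 132 in SGC0946 (0.20 ± 0.07, adjusted p = 0.0249), FOXM1 at 57.6 and 57.9 and at 66.8 in both libraries (0.21 ± 0.09, adjusted p = 0.0487), CENPE at 43.5 and 38.1 and at 51.1 and 50 (0.31 ± 0.10, adjusted p = 0.0113), KIF23, the kinesin of the central spindle, at 50.3 and 49.2 and at 59.5 and 60.3 (0.27 ± 0.08, adjusted p = 0.00804), and ECT2 at 56.9 and 55 and at 68.7 and 63.1 (0.24 ± 0.08, adjusted p = 0.0132). CCNB1 (144 in both DMSO libraries, 134 and 136 in SGC0946) and TOP2A (511 and 485, 550 and 549) were not called. With 2 libraries on each side, single libraries decided several calls: 11 of the 20 stayed called whichever library was left out. The calls of CDK1, FOXM1 and TPX2 were lost without any single 1 of the 4 sgLuc libraries. Without sgLuc DMSO library 2 those of CDC25C, CENPE, ECT2, KIF23 and PTTG1 were lost as well, leaving 4 higher members, with the lone library assumed to vary like the other groups. Without sgLuc SGC0946 library 1 there were 5 higher and 7 lower, and BUB1 was lost without sgLuc DMSO library 1 (adjusted p = 0.123) or either sgLuc SGC0946 library (0.0715 and 0.0512).

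In cells with the KDM6A guides the response to SGC0946 went mostly 1 way: 11 members were higher and 1 lower, where 17.4% of all genes were higher and 16.4% lower (33.8% in either direction). The median log2 fold change was 0.08 over the 39 genes and 0.00 over all. No member changed by 1.5-fold. The largest rises were KIF20A, from 34.7, 30.1, 42.6 and 39.7 CPM in the sgUTX DMSO libraries to 47.2, 51, 59.7 and 52.1 in SGC0946 (0.52 ± 0.09, adjusted p = 0.000259), CENPA, from 23.5 to 36.5 to between 34.9 and 43.8 (0.43 ± 0.12, adjusted p = 0.0132), BUB1, from 74 to 93.2 to between 95.5 and 118 (0.38 ± 0.07, adjusted p = 0.000285) and CENPF, from 170 to 185 to between 220 and 231 (0.36 ± 0.05, adjusted p = 2.16e-06). The groups of CENPA overlapped. MKI67 went from between 244 and 284 to between 324 and 353 CPM (0.34 ± 0.06, adjusted p = 4.81e-05), PLK1 from between 143 and 163 to between 163 and 182 (0.21 ± 0.05, adjusted p = 0.00381), and DLGAP5, ANLN, CDC20, KIF11 and BUB1B were higher by 0.31, 0.31, 0.31, 0.22 and 0.15. The exception was SPC25, lower in SGC0946, from between 26.1 and 31.1 to between 24.3 and 24.9 CPM (-0.25 ± 0.07, adjusted p = 0.0117). CCNB1, CDK1, AURKA, AURKB, FOXM1 and TOP2A were not called (0.06, 0.01, -0.05, -0.06, -0.05 and 0.11).

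By guide, sgUTX_2 gave 13 higher and 0 lower members with SGC0946, where 14.1% and 13.7% of all genes were called so (27.8% in all), and sgUTX_4 gave 10 and 2, where 13.9% and 12.5% were (26.4%); 10 were higher with both. For sgUTX_2, edgeR's 0 lower members became 1 at an unadjusted p of 0.05, and DESeq2 called 0. The groups of CDC20 overlapped over both guides, since CDC20 differed between them: 93 and 88.8 CPM in DMSO and 113 and 117 in SGC0946 with sgUTX_2, 120 and 107 and then 147 and 130 with sgUTX_4. Its call was lost without either sgUTX_2 DMSO library (adjusted p = 0.0846 and 0.0658) or either sgUTX_4 SGC0946 library (0.0538 and 0.0666), and that of BUB1B without sgUTX_4 DMSO library 2 (0.0536). The other 10 stayed called whichever library was left out.

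The difference between the responses of sgUTX and sgLuc cells was tested as an interaction. It was called for 17 members: 14 responded more positively with the KDM6A guides and 3 more negatively, where 18.3% and 16.5% of all genes did (34.8% in either direction); the median difference was 0.16 over the 39 genes and 0.02 over all. The balance of calls depended on the scaling and the tool: library size alone gave 10 and 9 (median 0.07), no filter on low counts 10 and 5 (0.10), and DESeq2 13 and 7 (0.12). All genes moved as well: their median was -0.07, -0.04 and -0.01 in the same order. Of all calls 40.6%, 44.7% and 47.8% were positive, against 52.6% in the main fit. The members' median lay above that of all genes in each of these fits. KIF20A had a response of -0.23 in sgLuc and 0.52 in sgUTX cells (difference 0.75 ± 0.16, adjusted p = 0.0012), BUB1 -0.32 and 0.38 (0.70 ± 0.12, adjusted p = 0.000164), KIF2C -0.61 and 0.00 (0.61 ± 0.08, adjusted p = 2.91e-06), and UBE2C -0.60 and 0.02 (0.61 ± 0.13, adjusted p = 0.000754). PTTG1 (0.60), PLK1 (0.55), CCNB2 (0.52), DLGAP5 (0.47), CDC25C (0.42) and AURKA (0.40) followed. The 3 negative differences were SPC25, at 0.84 in sgLuc and -0.25 in sgUTX cells (-1.09 ± 0.14, adjusted p = 2.01e-06), MKI67, at 1.11 and 0.34 (-0.77 ± 0.10, adjusted p = 2.82e-06), and KIF11, at 0.47 and 0.22 (-0.25 ± 0.09, adjusted p = 0.0349). MKI67 reached 310 to 353 CPM in all 6 SGC0946 libraries, whereas it had differed in DMSO.

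PLK1 and BUB1 were lower with SGC0946 in sgLuc cells and higher in sgUTX cells, and SPC25 the reverse, each call passing in both. The sgLuc DMSO libraries enter this test as well as the DMSO comparison and the response of the sgLuc cells, so these results share data. Without sgLuc DMSO library 2, the differences of CDC25C, PTTG1 and KIF11 were not called (adjusted p = 0.166, 0.07 and 0.295), nor those of ANLN and AURKB without library 1 (0.0527 and 0.229). That of CDCA8 was not called without sgLuc SGC0946 library 2 (0.0712). PTTG1 (0.0765) and CDC25C (0.171) were not called without sgLuc SGC0946 library 1 either. KIF11, AURKB and CDC25C were each lost without several other libraries too.

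**Figure D5:**
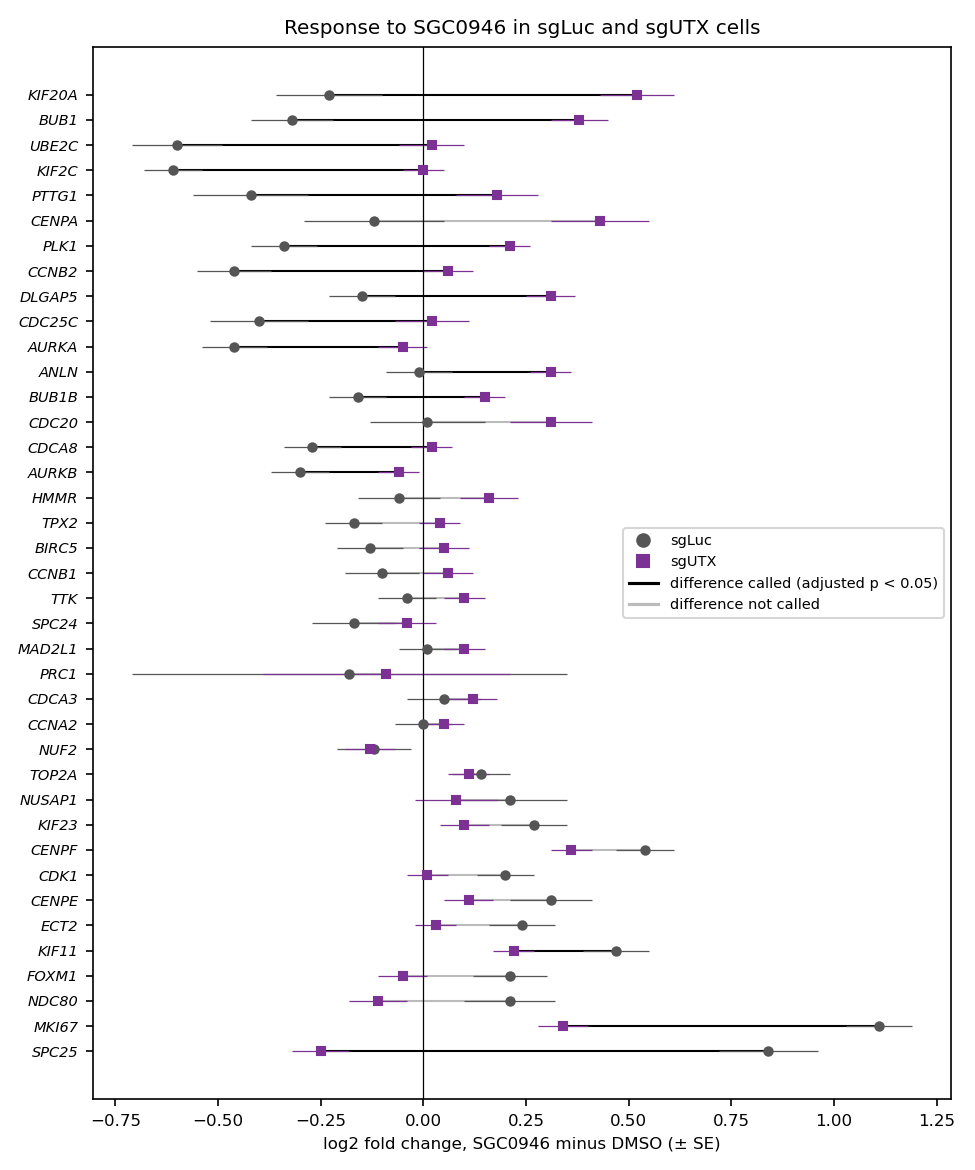
Log2 fold change with SGC0946 (horizontal axis, ± SE) of each of the 39 genes in sgLuc cells (grey circles, 2 against 2 libraries) and sgUTX cells (purple squares, 4 against 4), ordered by the difference between them; black lines join pairs whose difference passed an adjusted p of 0.05. From KIF20A at the top the squares lie to the right of the circles, and for KIF11, MKI67 and SPC25, near or at the bottom, to the left.

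Under SGC0946 the levels with the KDM6A guides lay closer to the control. Against sgLuc, 9 members were higher and 5 lower, where 27.7% of all genes were higher and 29.3% lower (56.9% in either direction), and the median was 0.03 against 0.01 over all genes. Among the called members HMMR alone passed 1.5-fold: 86.7 and 92.6 CPM with sgLuc, 55.8 and 64.2 with sgUTX_2 and 59.6 and 57.3 with sgUTX_4 (-0.60 ± 0.08, adjusted p = 3.13e-06). PTTG1 was at 57.9 and 65.3 CPM with sgLuc and 37.6 to 48.2 with sgUTX (-0.54 ± 0.12, adjusted p = 0.00111), and CDC25C at 16.5 and 18.5 and 11.8 to 14.4 (-0.39 ± 0.11, adjusted p = 0.00352). UBE2C (36 and 40.9 against 29.8 to 35.5) and NDC80 (47.7 and 52.7 against 40.6 to 45.5) were lower by the same log2 value, -0.22 (adjusted p = 0.0443 and 0.0392). HMMR, PTTG1, CDC25C and UBE2C were thus lower with the KDM6A guides under either treatment, but under SGC0946 not all of these calls were stable. Without sgLuc SGC0946 library 2, UBE2C (-0.12, adjusted p = 0.432), NDC80 (-0.15, 0.34) and CDC25C (-0.30, 0.0876) were not called. By library size alone they stood at -0.04, -0.04 and -0.20 (0.75, 0.735 and 0.105), and with upper-quartile factors UBE2C and NDC80 at -0.17 and -0.17 (0.118 and 0.107). UBE2C and NDC80 were each lost without some sgUTX libraries as well. PRC1 had the largest fold change of the 39, but at 0.73 CPM with sgLuc and 1.28 with sgUTX on average it was not called (0.80 ± 0.43, adjusted p = 0.112).

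Among the called members BUB1B, SPC24, ECT2 and PLK1 had the largest positive values under SGC0946. BUB1B was at 85.5 and 84.3 CPM with sgLuc and 111 to 119 with sgUTX (0.44 ± 0.06, adjusted p = 8.25e-07), SPC24 at 28.4 and 27.5 and 33.5 to 37 (0.36 ± 0.08, adjusted p = 0.0008), ECT2 at 68.7 and 63.1 and 79.2 to 83.8 (0.32 ± 0.06, adjusted p = 0.000181), and PLK1 at 140 and 142 and 163 to 182 (0.31 ± 0.07, adjusted p = 0.000286). PLK1 had been lower in DMSO, and the difference between the 2 effects was the 0.55 given above. CENPF (0.29), CENPE (0.24), AURKB (0.20, at 76 and 77.4 against 86.4 to 89.8 CPM), KIF2C (0.16) and TPX2 (0.14) were also higher. Without sgLuc SGC0946 library 1, AURKB (0.18), CENPE (0.26), KIF2C (0.13) and TPX2 (0.17) were not called. Without library 2, CENPE (0.23), KIF2C (0.18) and TPX2 (0.11) were not called. DESeq2 called neither KIF2C (0.13, adjusted p = 0.0507) nor TPX2 (0.11, adjusted p = 0.113). MKI67 (341 and 310 against 324 to 353 CPM), CCNB1 (134 and 136 against 122 to 141), CDK1 (129 and 132 against 110 to 123), AURKA (81.5 and 82.8 against 79.8 to 92.9), FOXM1 (66.8 in both against 67.6 to 73.5) and TOP2A (550 and 549 against 532 to 551) were not called. With sgUTX_2 alone there were 7 higher and 9 lower members, where 27.3% and 29.1% of all genes were called so (56.4% in all), and with sgUTX_4 alone 11 and 4, where 27.3% and 29% were (56.3%); 7 and 3 were called with both. Here the fit was less stable: 7 of 14 calls stayed whichever library was left out. Without sgLuc SGC0946 library 2 there were 2 lower members and the median was -0.02, without sgUTX_4 SGC0946 library 1 there were 8 lower, without sgUTX_2 SGC0946 library 1 there were 3 lower, and without sgLuc SGC0946 library 1 there were 5 higher.

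Of the 39 genes, 9 were called in none of the 4 comparisons of groups: CCNA2, BIRC5, TTK, MAD2L1, NUF2, NUSAP1, PRC1, CDCA3 and TOP2A. Their levels ran from 0.554 to 2.05 CPM for PRC1 to 481 to 551 for TOP2A, and their log2 fold changes lay between -0.15 and 0.21 apart from PRC1, whose SE was 0.30 to 0.53. NUSAP1 shares 62.2% of its exonic bases with AC087721.2 on the same strand, so its count, like that of PRC1, depends on how shared reads were treated. AC087721.2 itself was at 0 counts in all 12 libraries. Whether these levels were alike is not shown by a missed threshold. The share of all genes called in none of the 4 comparisons was not counted.

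The other genes of the pathway, 102 genes in 8 lists that hold no member, moved mainly upward with the KDM6A guides. In DMSO, 62 of the 102 were higher with the KDM6A guides and 18 lower (median 0.35), where 28.7% and 32.3% of all genes were. The condensin list had 7 higher and 1 lower of 8, led by NCAPD3 (82.6 to 147 CPM, log2 fold change 0.83), and the cohesin list 9 and 1 of 12, led by STAG1 (1.55) and SMC1A (1.09). Of the DREAM and B-MYB complex genes, through which the CHR element is read, 9 of 11 were higher and 1 lower, and MYBL2, which encodes B-MYB, went from 88.4 ± 7.92 CPM (SD, n = 2) to 256 ± 25 (n = 4; 1.53, adjusted p = 7.04e-13, edgeR). Among other kinetochore and checkpoint genes 13 of 20 were higher and 3 lower, with MAD1L1 at -1.12 and CENPM at 1.25. The subunits and regulators of the anaphase-promoting complex had 9 higher and 2 lower of 17 (ANAPC15, 0.96, and ANAPC1, 0.86), and the G2 checkpoint list 6 and 2 of 10 (CDC25A, 1.81, and PKMYT1, 20.8 to 58.6 CPM). Other kinesins and spindle proteins were divided, with 6 higher and 7 lower of 17 (KIF2A, 0.65, and SPAG5, -0.60), and so was the centrosome cycle, with 3 and 1 of 7 (NEK2, -0.83, and CEP152, 0.83).

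The 20 S phase and replication genes moved mostly in 1 direction within each comparison. In DMSO, 19 were higher and 0 lower with the KDM6A guides (median 1.19), where 28.7% and 32.3% of all genes were, led by CCNE2, cyclin E2 (4.13 ± 0.491 to 24.7 ± 3.87 CPM, 2.57), and CCNE1 (1.91). With SGC0946 in sgLuc cells 16 were higher and 1 lower (median 0.62; CCNE2, 2.15, and RRM2, 1.76), where 24.7% and 24.2% of all genes were. In sgUTX cells 0 were higher and 11 lower (median -0.17; CDC45, -0.50, and CDT1, -0.44; all genes 17.4% and 16.4%). The difference between those responses was negative for 17 and positive for 0 (median -0.66; all genes 16.5% and 18.3%). The 3 counts of 0 are edgeR's: at an unadjusted p of 0.05 they were 0, 1 and 1, and by DESeq2 each was 0. Under SGC0946, 16 were higher and 1 lower with the KDM6A guides (median 0.57; E2F1, 0.91, and POLA1, 0.77; all genes 27.7% and 29.3%). Within a library, the counts of the S phase list per count of the 39 mitotic genes were 0.57 and 0.556 in sgLuc DMSO, 1.06 to 1.24 in sgUTX DMSO, 0.677 and 0.679 in sgLuc SGC0946 and 0.931 to 0.975 in sgUTX SGC0946, so the groups did not overlap. This ratio was chosen after its values were seen.

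With SGC0946 in sgLuc cells, 39 of the 102 other pathway genes were higher and 16 lower (median 0.11), where 24.7% and 24.2% of all genes were. In sgUTX cells there were 11 and 25 (median -0.03; all genes 17.4% and 16.4%). The difference between the responses was positive for 12 and negative for 37 (median -0.18; all genes 18.3% and 16.5%). CDKN1A, the CDK inhibitor p21, had the largest difference in the G2 checkpoint list: it was at 16.7 ± 0.863 CPM in sgLuc DMSO and 74.2 ± 2.33 in sgLuc SGC0946 (n = 2 each; 2.15, adjusted p = 1.23e-12), and at 11.4 ± 0.946 and 7.19 ± 0.831 in sgUTX cells (n = 4 each; -0.66, adjusted p = 1.15e-05, edgeR), a difference of -2.81. MYBL2 rose in sgLuc cells (0.71) and its difference was -1.04, and that of RBL1, which encodes the DREAM subunit p107, was -0.96. Under SGC0946, 54 of the 102 were higher with the KDM6A guides and 15 lower (median 0.25; all genes 27.7% and 29.3%).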

How the data were processed

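RNA of 12 OCI-AML2 libraries, 2 for each of 6 groups, was sequenced. The authors deposited 1 table of unnormalized read counts for 58735 gene identifiers. Total RNA was the starting material and reads were paired, per the labels' protocols. STAR 2.5.1b and hg19 stand in the submitters' processing notes, yet every identifier of the table, and no other, is in GENCODE 29, which annotates GRCh38. The build behind the counts is therefore uncertain and positions are given on GRCh38. Not given in the sources used here are the counting program and its use of strand and of shared reads. The counts were filtered with filterByExpr, leaving 15060 genes, scaled by TMM and fitted with the quasi-likelihood test of edgeR 4.0.16 in R 4.3.3 over all 12 libraries in 4 groups (guide class by treatment; 8 residual degrees of freedom), or in 6 groups to compare the guides (6 residual degrees of freedom). P-values were adjusted by Benjamini and Hochberg's method over all genes tested and called under 0.05; the standard error is the log2 fold change divided by the square root of F. The script was tested on simulated data. Promoters come from a RefSeq table (GRCh38.p14).

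The members, roles, lists and tests were chosen with earlier results of these data known, and MKI67, CCNB1, CDK1, PLK1, AURKA, AURKB, FOXM1 and TOP2A were to be given by library always, with the 4 largest rises and 4 largest falls of each comparison and every called member that went against most others of its comparison; genes of other lists are the 2 with the largest called change. Alternatives were library size alone, TMM without ribosomal protein genes, upper-quartile factors, no filter, a replicate block, guides averaged in 6 groups, DESeq2 1.42.0 and leaving out each library.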

Additional observations from a re-analysis of the deposited data

Results flagged for a closer look

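The response to SGC0946 differed between sgLuc and sgUTX cells, by the interaction test in edgeR, for 17 of the 39 genes. The difference (response with the KDM6A guides minus response with sgLuc, log2) was 0.75 for KIF20A, 0.70 for BUB1, 0.61 for KIF2C, 0.61 for UBE2C, 0.60 for PTTG1, 0.55 for PLK1, 0.52 for CCNB2, 0.47 for DLGAP5, 0.42 for CDC25C, 0.40 for AURKA, 0.32 for ANLN, 0.31 for BUB1B, 0.29 for CDCA8 and 0.24 for AURKB. It was negative for SPC25 (-1.09), MKI67 (-0.77) and KIF11 (-0.25). Across all genes tested 34.8% differed. BUB1 and PLK1 were called lower in sgLuc cells and higher in sgUTX cells.

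A single library stood apart from the other 3 of its sgUTX group for 4 genes: CDK1 at 110 CPM in sgUTX_2 SGC0946 library 1, TTK at 85.4 CPM in sgUTX_4 SGC0946 library 1, ECT2 at 79.2 CPM in the same library, and DLGAP5 at 52.7 CPM in sgUTX_2 DMSO library 2. In all, 78 groups of 4 libraries were looked at, and chance alone marks about 1 in 20.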

How the results depend on the processing

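Scaling by library size alone moved the members' median in each comparison of groups except the response of sgUTX cells (11 higher and 1 lower, median 0.09). In DMSO it gave 21 higher and 9 lower members with a median of 0.18, and it turned CCNB1 (0.08), PLK1 (0.04) and ANLN (0.02), called lower with TMM, and TPX2 (0.20), AURKB (0.23), BIRC5 (0.18), TTK (0.17), MAD2L1 (0.18) and CDCA3 (0.18), not called. Under SGC0946 it gave 20 higher and 2 lower members (median 0.22; TOP2A turned to 0.17), for the response of sgLuc cells a median of 0.00, and for the difference of responses 10 higher and 9 lower (median 0.07). Over all genes it moved the share of higher calls from 48.6% to 65% under SGC0946, from 50.6% to 60.9% in sgLuc cells and from 52.6% to 40.6% for the difference. The median gene of all those tested was then at 0.26 in DMSO (-0.01 with TMM) and 0.20 under SGC0946 (0.01 with TMM). It was at 0.09 in sgLuc cells (0.00 with TMM) and at -0.07 for the difference (0.02 with TMM). In each of these the members' median moved in the same direction as the median gene. Upper-quartile factors gave 3 lower under SGC0946 (median 0.08), 15 higher and 1 lower in sgUTX cells (median 0.12) and a median difference of 0.20. With these factors 53.4% of all calls under SGC0946 were higher. In sgUTX cells 58.5% were, against 51.5% in the main fit. The median difference over all genes was 0.07. Without the filter the DMSO median was -0.01 and the difference had 10 higher and 5 lower (median 0.10). The medians of all genes were then 0.06 in DMSO and -0.04 for the difference, where 44.7% of all calls were higher. Averaging the guides in 6 groups gave 8 lower under SGC0946 and 18 higher and 5 lower for the difference. Of all calls, 48.4% and 52.8% were higher there. DESeq2 gave 13 higher and 7 lower for the difference and 2 higher between the guides in DMSO, where 47.8% and 49.3% of all its calls were higher. The cause of these shifts was not tested.

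Leaving out each library gave 7 to 10 higher and 12 to 17 lower in DMSO (median -0.10 to -0.05), 5 to 9 and 2 to 8 under SGC0946 (median -0.02 to 0.05), 4 to 9 and 7 to 11 in sgLuc cells (median -0.10 to -0.06), 10 to 14 and 1 to 2 in sgUTX cells (median 0.04 to 0.10), and 11 to 17 and 2 to 4 for the difference (median 0.13 to 0.22). Between the guides it gave 0 to 5 higher in DMSO and 0 to 1 in SGC0946. Without both sgLuc DMSO libraries, an alternative chosen after seeing the data, there were 8 higher and 5 lower under SGC0946 and 11 and 1 in sgUTX cells. Of all calls, 48.4% and 51.9% were higher there.

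The replicate numbers did not pair the samples: deviations of same-numbered libraries correlated between -0.111 and 0.0731 over 15 pairs of groups. With the replicate number as a block there were 8 higher and 15 lower members in DMSO, 8 and 4 under SGC0946, 8 and 10 in sgLuc cells, 11 and 1 in sgUTX cells, and 14 and 3 for the difference. Low counts limit PRC1, at 0.554 to 2.05 CPM, and 57.6% of its exonic bases are shared with AC068831.7 on the same strand.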
